A study of Mus musculus with 40 samples.

Results

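Interferon signalling and MHC class I antigen presentation were followed in 35 genes, listed by symbol as antigen presentation genes, interferon receptors, interferon regulatory factors and interferon stimulated genes. All 35 were found, each as 1 Ensembl gene, among the 55487 genes of the count table. The cells came from mouse embryonic stem (ES) cells of the Hb9::eGFP line, from mice of the B6.Cg background with Tg(Hlxb9-GFP)1Tmj/J, a transgene in which the promoter of a motor neuron homeobox gene drives green fluorescent protein. Glial progenitors of these cultures were expanded and matured with forskolin into astrocyte-like cells (ES-astrocytes), received a stimulus for 24 h, and were then overlaid with sorted fluorescent ES-motor neurons. They were sorted apart by fluorescence after co-culture, and cytosolic polyadenylated RNA of about 200 cells was sequenced per library. There were 40 libraries, 4 replicates (A to D) for each cell type in each of 5 treatments, and a replicate is 1 vial of a defined passage of a single ES line.

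All groups share the ES line, the differentiation and the co-culture, and they differ in cell type and stimulus. Control ES-astrocytes received no stimulus. The others received interleukin (IL) 1α with tumour necrosis factor (TNF) α, complement component C1Q with C5, IL-1β with IL-6, or transforming growth factor TGF-β2. The ES-motor neurons of each treatment were placed on ES-astrocytes that had been given that stimulus, without prior removal of the astrocyte medium. Their groups therefore record contact with stimulated cells and with the medium of those cells. The authors describe a small risk of stimulus left in that medium and consider it likely negligible. No group received an interferon.

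Type I interferons bind a receptor of Ifnar1 and Ifnar2, and type II interferon binds Ifngr1 with Ifngr2. Both receptors act through Janus kinases, and with Irf9 and other regulatory factors the signal switches on genes that block viral replication and raise the display of peptides on MHC class I. Peptides are carried into the endoplasmic reticulum by Tap1 and Tap2 and loaded with the help of Tapbp onto an H2 heavy chain paired with B2m, and neurons are known for keeping this display low at rest while reactive glia can raise it.

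Depth differed widely between libraries. Totals over genes ran from 1510823 to 16054290 counts for ES-astrocytes (median 4670241.5) and from 6557 to 19717324 for ES-motor neurons (median 1213482). Values are CPM, the counts of a gene as a share of its library on the usual scale, after correction of library size by edgeR's TMM method, and levels of different genes are set beside each other only as CPM per kilobase of annotated exons. A total of 9 ES-motor neuron libraries had totals under 20% of the median over the 40: all 4 with IL-1α and TNF-α, control C, C1Q and C5 A, IL-1β and IL-6 B and D, and TGF-β2 A. In C1Q and C5 A, with 6557 counts, a single count is worth 67.6 CPM. Because the libraries are of sorted bulk cells, fewer cells of a kind and less RNA per cell cannot be told apart.

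Libraries also stood apart by a shared deviation from their group means over 13227 genes, most of all 3, 1 of which is among the 9 shallow ones. ES-astrocyte control A correlated with ES-motor neuron IL-1β and IL-6 A (r = 0.518) and with ES-motor neuron IL-1α and TNF-α A (r = 0.434), and the latter pair with each other (r = 0.424), against a median r of 0.0037 over 720 pairs of libraries from different groups. Next came ES-astrocyte IL-1α and TNF-α B and TGF-β2 A, at r = 0.399 and 0.392 with control A and 0.383 and 0.382 with ES-motor neuron IL-1β and IL-6 A, so the deviation has no sharp border. ES-astrocyte control A also had 1.12% of its counts on mitochondrial genes, where the other control ES-astrocytes had 3.53 to 3.87%. ES-motor neuron IL-1β and IL-6 A had counts for 24 of the 35 genes, more than any other library. Plate index 1 held the control and the IL-1α and TNF-α libraries and plate index 2 those of the other 3 stimuli, so for these stimuli the plate and the treatment cannot be told apart.

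The labelled cell types were checked against marker genes. Of 8 motor neuron markers, 7 were higher in ES-motor neurons, Mnx1 the most abundant, and their summed level was 1284 to 5182 CPM there against 26.2 to 152 CPM in ES-astrocytes. Glial markers summed to 1266 to 4338 CPM in ES-astrocytes (median 2670), with Fabp7, a fatty acid binding protein of radial glia, the most abundant at a mean of 1430 CPM. Of 8 tested, 6 were lower in ES-motor neurons, among them Fabp7 (log2 fold change -5.79), and 1, the glial factor Sox9, was higher (1.75, SE 0.31), and their sum reached 1232 CPM there. Neuron markers summed to 1333 to 3042 CPM in ES-astrocytes (median 1979), most of all Stmn2, and to 3108 to 10365 CPM in ES-motor neurons. The defining astrocyte markers Gfap, Aqp4 and Aldh1l1 had no count in any of the 20 ES-astrocyte libraries. Markers of microglia, the main MHC-bearing cells of nervous tissue, summed to at most 11.9 CPM per ES-astrocyte library and 21.9 CPM per ES-motor neuron library, with Csf1r the most abundant and Ptprc, Aif1, Tyrobp, C1qa, C1qb, Trem2 and P2ry12 at 0 throughout. Lymphocyte markers reached at most 0.205 CPM.

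The 35 genes were a small share of the RNA in both cell types, and most of them were seldom counted. Their summed level was 322 to 880 CPM in ES-astrocytes (median 545) and 148 to 328 CPM in ES-motor neurons (median 212). In ES-astrocytes 16 had a median above 0, and 6 were counted in all 20 libraries: B2m, Tapbp, Ifitm2, Ifitm3, Ifngr1 and Ifngr2. In ES-motor neurons 12 had a median above 0, and Ifitm2 and Ifngr2 were counted in every library. Ifit1, an antiviral protein that binds foreign RNA, had no count in any of the 40 libraries.

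Among the receptors, Ifngr2, the signal-transducing chain for interferon γ, lay lowest, median and highest at 2.76, 21.9 and 51.9 CPM in ES-astrocytes and at 17.3, 49.2 and 105 CPM in ES-motor neurons. Its partner Ifngr1, which binds the ligand, lay at 0.634, 13.8 and 69.8 CPM in ES-astrocytes and at 0, 16.3 and 67.6 CPM in ES-motor neurons. The type I chains Ifnar1 and Ifnar2 had medians of 12.6 and 11.9 CPM in ES-astrocytes and of 8.43 and 12.7 CPM in ES-motor neurons. Both cell types therefore held transcripts of all 4 receptor chains. Per kilobase, the mean levels in ES-astrocytes were 5.83 for Ifngr1, 5.75 for Ifngr2, 3.44 for Ifnar2 and 2.54 CPM per kilobase for Ifnar1. In ES-motor neurons Ifngr2 stood at 13, Ifngr1 at 5.76, Ifnar2 at 4.94 and Ifnar1 at 2.16 CPM per kilobase. Ifnar2 overlaps Gm21970 on the same strand, so its reads may have been divided.

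Regulatory factors were scarce. Irf3, a factor held in the cytosol until viral nucleic acid is sensed, had a median of 5.16 CPM in ES-astrocytes, from 0 to 48.3, and the highest value was in control A, a library that stands apart. Irf1, a factor that activates MHC class I genes, was counted in 11 of 20 ES-astrocyte libraries, with a highest value of 13.2 CPM, and in 3 ES-motor neuron libraries. Irf7, which amplifies type I interferon production, was counted in 3 ES-astrocyte libraries and never above 1.84 CPM there. Irf9, a DNA-binding subunit of the complex that answers type I interferon, reached 1.24 CPM per kilobase in ES-motor neurons, its mean over the 20 libraries. It overlaps Rnf31 on the same strand, so its reads may have been divided.

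For antigen presentation, B2m, the light chain shared by the class I molecules, had a lowest, median and highest value of 17.2, 98.5 and 202 CPM in ES-astrocytes and of 0, 35.8 and 69.7 CPM in ES-motor neurons. Tapbp, which bridges the peptide transporter and the class I molecule, had medians of 41.2 and 42.3 CPM in the 2 cell types. The class I heavy chains were far lower: per kilobase, the mean in ES-astrocytes was 120 for B2m, 13.4 for Tapbp, 6.54 for H2-D1, 1.39 for H2-T22 and 1.36 CPM per kilobase for H2-K1. Tap1, a subunit of the transporter, was counted in 3 ES-astrocyte libraries, at 5.13 CPM in C1Q and C5 B, 12.8 CPM in IL-1β and IL-6 D and 0.234 CPM in TGF-β2 D, and in no ES-motor neuron library. Its partner Tap2 never passed 1 count in a library. The H2 genes are near copies of each other, so the split of reads among them is uncertain, and Tap1 overlaps Psmb9 on the other strand. Tapbp overlaps Zbtb22 on the same strand, so reads may have been divided between these as well.

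Among the stimulated genes, Ifitm3 and Ifitm2, membrane proteins that hinder the entry of enveloped viruses, stood out from the rest in ES-astrocytes at means of 254 and 125 CPM per kilobase. Isg15, a ubiquitin-like modifier, and Rsad2, an enzyme that makes an antiviral nucleotide, were nearly absent. Isg15 was counted in ES-astrocytes only in IL-1α and TNF-α B (0.993 CPM) and IL-1β and IL-6 C (0.936 CPM), and in ES-motor neurons only in TGF-β2 C (4.22 CPM). Rsad2 had 2 counts, in ES-motor neuron IL-1β and IL-6 A. The guanylate-binding proteins Gbp2 and Gbp3, which attack the membranes of pathogens, were counted in ES-astrocytes alone, Gbp2 at 0.171 CPM in C1Q and C5 B and Gbp3 at 9.27 and 2.30 CPM in IL-1α and TNF-α B and C. The RNA sensors differed in reach: Ddx58 was counted in 6 ES-astrocyte libraries, up to 33.7 CPM in C1Q and C5 A, and Ifih1 in 1, at 15.1 CPM in C1Q and C5 D.

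**Figure D1:**
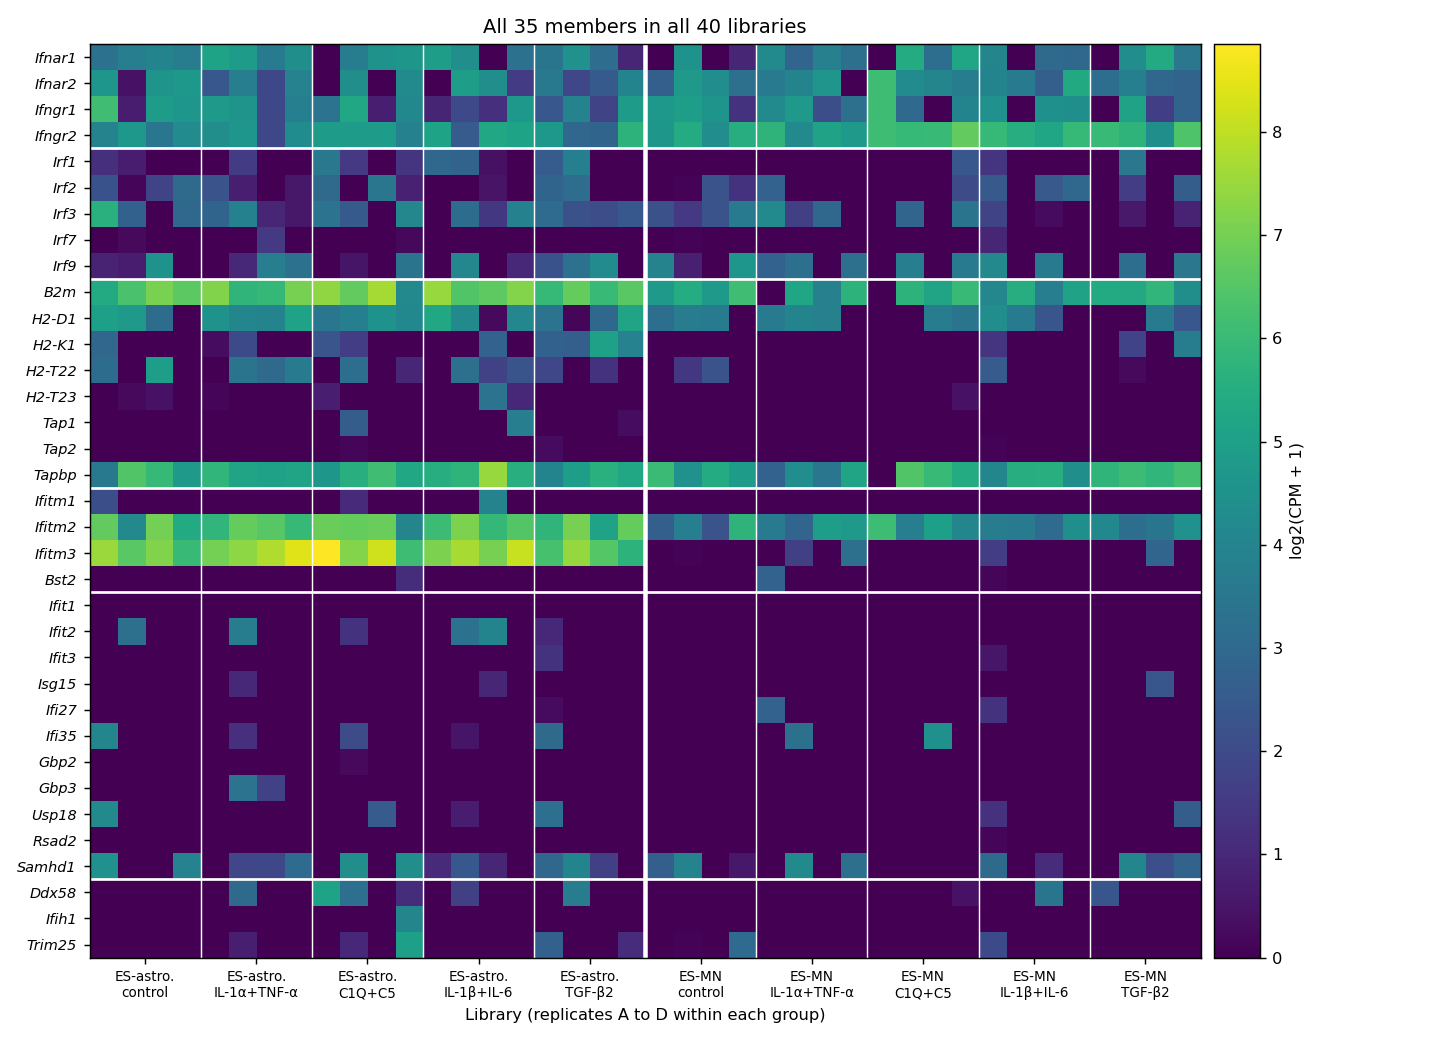
Level of the 35 genes (vertical axis, ordered by role) in each of the 40 libraries (horizontal axis, by cell type and treatment) as log2(CPM + 1). Ifitm3, Ifitm2 and B2m are bright across the ES-astrocyte libraries, and most stimulated genes are at 0 in most libraries.

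The cell type comparison asked how the 35 genes differ between ES-motor neurons and ES-astrocytes across treatments, in a fit of all 40 libraries that also has a term for treatment. Ifitm3, Ifitm2, B2m, Ifit2 and H2-T22 were lower in ES-motor neurons, and Ifngr2 was higher. Ifitm3 had the largest fitted log2 fold change of these. It had 16592 counts over the ES-astrocyte libraries and 44 over those of ES-motor neurons, which had a lower median depth. This is no ranking of the differences, as that fold rests on few ES-motor neuron counts and Ifit2, without a count there, has only a lower bound. Of 20 genes of the list that passed the filter on low counts, edgeR called 6 (adjusted p up to 0.05, with a log2 fold change beyond 1 in either direction), where 1972 of all 13227 genes tested were called (14.9%). By direction, 5 were lower in ES-motor neurons beside 1461 genes (11%), and 1 was higher beside 511 genes (3.86%). At an unadjusted p under 0.05 there were 7 beside 3762 genes (28.4%), and DESeq2 called 4 of 28 beside 1846 of 26773 genes (6.9%). Of the 28, DESeq2 gave 16 no adjusted p, so these could not be called. A gene counted only or mostly in a single cell type can pass the filter through that cell type alone, as Ifitm3, Ifit2 and H2-T22 did, so these counts are a description.

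Ifitm3 (ENSMUSG00000025492, chr7:141009586-141010770, minus strand) lay at 51.5, 145 and 461 CPM (lowest, median, highest) in ES-astrocytes. Of the 20 ES-motor neuron libraries 15 had no count, and the highest value was 8.67 CPM. Every ES-astrocyte library was above every ES-motor neuron library, though C1Q and C5 A, where 1 count is 67.6 CPM, could not show the lower ES-astrocyte levels. Its log2 fold change was -7.83 (SE 0.55, edgeR adjusted p = 5.6e-16), but it passed the filter through ES-astrocytes and the size of this fold rests on few ES-motor neuron counts. In ES-motor neurons only 2 libraries had 3 counts or more, IL-1β and IL-6 A with 32 (2.03 CPM) and TGF-β2 C with 9 (6.32 CPM). Without the 3 libraries that deviate together the log2 fold change was -8.29, without the shallow libraries -7.89, and within plate index 1 and 2 it was -9.02 and -7.44.

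Ifitm2 (ENSMUSG00000060591, chr7:140954837-140955987, minus strand), which lies near Ifitm3 with Ifitm1 between them, lay at 15.3, 90.9 and 137 CPM in ES-astrocytes and at 3.85, 12.7 and 67.6 CPM in ES-motor neurons. The ranges overlap, and the 67.6 CPM of C1Q and C5 A is a single count. Its log2 fold change was -2.29 (SE 0.31, edgeR adjusted p = 1.35e-07), and within plate index 1 and 2 it was -1.87 and -2.49. Ifitm1, the remaining gene of this family on the list, was counted in 3 ES-astrocyte libraries, at 3.32 CPM in control A, 1.11 CPM in C1Q and C5 B and 14.6 CPM in IL-1β and IL-6 C. It had no count in ES-motor neurons, which makes it at least 42.6-fold higher in ES-astrocytes on counts summed over each cell type, taking 3 counts in all ES-motor neuron libraries together as the floor. IL-1β and IL-6 C holds 187 of its 231 counts, and without that library the bound is 9.12-fold. Such a bound covers counting error only, not the spread between libraries. Members of this family share sequence, and Ifitm2 overlaps Gm45717 on the same strand, so reads may have been divided between them.

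B2m (ENSMUSG00000060802, chr2:122147686-122153083, plus strand) had values in every ES-astrocyte library, and in ES-motor neurons 18 of 20 had a count. In control ES-astrocytes B2m was 41.8, 78.7, 134 and 96.8 CPM in A to D, and in control ES-motor neurons 26.3, 43.9, 26.9 and 69.7 CPM. The higher ES-motor neuron values lie within the ES-astrocyte range. Over all treatments its log2 fold change was -1.54 (SE 0.28, edgeR adjusted p = 2.83e-05). Within plate index 2 it was -1.58 (adjusted p = 0.00147), and within plate index 1 it was -1.36 and not called (adjusted p = 0.0852). B2m overlaps Patl2 on the other strand.

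H2-T22 (ENSMUSG00000056116, chr17:36037128-36042747, minus strand), a class I gene of the T region, was counted in 12 ES-astrocyte libraries and 4 ES-motor neuron libraries, with highest values of 30.3 and 4.83 CPM. Its log2 fold change was -3.24 (SE 1.06, edgeR adjusted p = 0.0236), a fold that is not well measured, as the gene passed the filter through ES-astrocytes. This call was lost on leaving out the shallow libraries (-3.01, adjusted p = 0.167) and replicate B, C or D of all groups (-3.05, -2.73 and -3.07, adjusted p = 0.381, 0.169 and 0.0959). It was also lost within either plate (-3.69 and -2.79, adjusted p = 0.269 and 0.224), with a block by treatment and replicate letter (-3.44, adjusted p = 0.113) and with DESeq2 (-2.28, adjusted p = 0.182). The DESeq2 fit had a median log2 fold change of 1.33 over all its genes, so its value is not set beside those of edgeR. Its relative H2-K1, one of the classical heavy chains that present peptides to T cells, was counted in 10 ES-astrocyte and 3 ES-motor neuron libraries, and its log2 fold change of -2.93 (SE 1.10) missed the threshold at an edgeR adjusted p of 0.0546, where RLE size factors put it just inside (-3.00, adjusted p = 0.04999), with the same limit on its fold. H2-D1, the other classical chain on the list, had medians of 15.9 and 8.84 CPM and a log2 fold change of -1.16 (edgeR adjusted p = 0.228).

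Ifit2 (ENSMUSG00000045932, chr19:34550694-34576419, plus strand), an antiviral protein with tetratricopeptide repeats, was counted in 6 ES-astrocyte libraries: control B (8.69 CPM), IL-1α and TNF-α B (12.6 CPM), C1Q and C5 B (1.45 CPM), IL-1β and IL-6 B and C (8.89 and 14.8 CPM) and TGF-β2 A (1.02 CPM). The other 14 ES-astrocyte libraries and all 20 ES-motor neuron libraries had none. On counts summed over each cell type and the floor used for Ifitm1, it was at least 72.0-fold higher in ES-astrocytes. Without IL-1β and IL-6 C, which holds 190 of its 390 counts, this was at least 41.5-fold. The bound covers counting error only, not the spread between libraries. Deep ES-astrocyte libraries were also without a count of Ifit2, as IL-1α and TNF-α A with 14831839 counts in all. The edgeR adjusted p of Ifit2 was 0.00732, but as it passed the filter through ES-astrocytes alone, this call supports no more than the bound. DESeq2, with the shifted median given for H2-T22, did not call Ifit2 (adjusted p = 0.702). Nor did edgeR with a block by treatment and replicate letter (-4.51, adjusted p = 0.0569). Without replicate B of all groups, which holds 4 of the 6 libraries, Ifit2 fell below the filter, as it did within either plate alone.

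Ifngr2 (ENSMUSG00000022965, chr16:91547072-91565623, plus strand) went the other way, with a log2 fold change of 1.14 (SE 0.29, edgeR adjusted p = 0.00312). In control libraries it stood at 14.5, 25.3, 10.2 and 18.5 CPM in ES-astrocytes A to D and at 24.5, 42.6, 19.2 and 44.4 CPM in ES-motor neurons. The highest 2 control values are of ES-motor neurons B and D, and the others overlap. Within plate index 1 its log2 fold change was 1.07 and not called (adjusted p = 0.281), and within plate index 2 it was 1.27 (adjusted p = 0.0233). The other receptor chains had log2 fold changes of 0.36 (Ifnar2), -0.20 (Ifnar1) and -0.07 (Ifngr1), none of them called.

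Of the remaining genes tested, Irf3 (-1.45), Irf1 (-1.89), Ddx58 (-1.79), Usp18 (-1.86), Ifi35 (-1.03), Samhd1 (-0.30), Irf2 (-0.29), Tapbp (-0.26) and Irf9 (0.54) had log2 fold changes that did not pass the test. Usp18, which removes Isg15 from proteins and dampens the type I receptor, and Ifi35 had their highest ES-astrocyte values, 17.7 and 15.6 CPM, in control A, which stands apart. The other 15 genes of the list fell below the filter. Among these, Tap1 had counts in ES-astrocytes alone, where its summed counts put it at least 16.1-fold higher. Without C1Q and C5 B, which holds 60 of its 87 counts, that was 5.54-fold, and both bounds cover counting error only. Ifih1 and Gbp3 also had counts in ES-astrocytes alone, all 98 of Ifih1 in C1Q and C5 D and 28 of 33 of Gbp3 in IL-1α and TNF-α B, so without that library neither has a bound. Gbp2 and Rsad2 had at most 2 counts in all and give no such bound.

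Markers of fibroblasts or mesenchyme moved with the cell type in the direction of Ifitm3. Of 9 such markers, Dcn, Col1a1 and Col1a2 were tested, and all 3 were called lower in ES-motor neurons, beside 11% of all genes tested. There Col1a2 had no count, Col1a1 was counted in 2 libraries and Dcn in 4, so these genes passed the filter through ES-astrocytes. Neither their folds nor the number called is therefore a measure of the difference. Their sum was 37.0 to 1122 CPM in ES-astrocytes (median 205), with Dcn the most abundant and Postn at 0, and 0 to 5.92 CPM in ES-motor neurons. The part of these cells, if present, in the levels of the interferon and MHC class I genes was not tested. Leaving out the 3 libraries that deviate together kept all 6 calls, as did leaving out the 5 named above (Ifitm3 -8.49, Ifitm2 -2.22, B2m -1.54, Ifngr2 1.11 and H2-T22 -4.12).

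**Figure D2:**
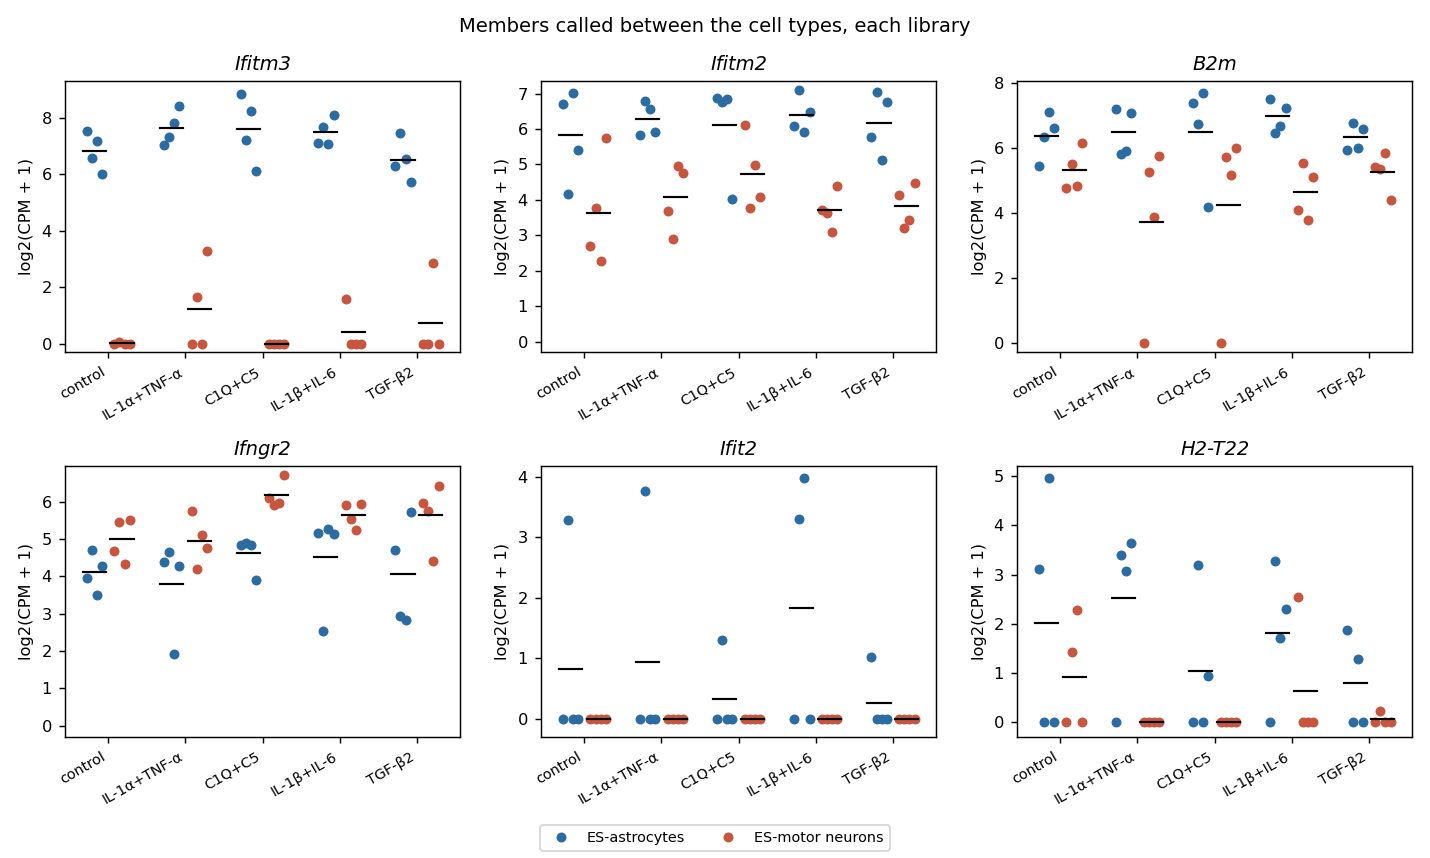
The 6 genes that differed between the cell types, as log2(CPM + 1) in each library by treatment (horizontal axis), in blue for ES-astrocytes and red for ES-motor neurons, with a black line at the mean of the log2 values of a group. Ifitm3 separates the cell types in every treatment, Ifngr2 is the gene that lies higher in ES-motor neurons, and Ifit2 and H2-T22 rest on scattered libraries.

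The genes that differed were also looked at by promoter sequence, since interferon responses are known to act through short DNA motifs near the start of a gene. Windows from 250 bases before to 50 bases after the start were taken from RefSeq (GRCm38.p6), which held 32 of the 35 genes (not Tap2, Usp18 and Ifi27). GAAANNGAA, the core of the interferon-stimulated response element, was found on either strand in 16 of the 37 windows of these genes and in 8.56% of all 32851 windows. TTCNNNGAA, the gamma-activated site, was found in 9 of the 37 and 8.3% of all windows, and GGGNNTTCC, a form of the kB site, in 5 of the 37 and 5.82% of all windows. By the rule set for showing sequences, the genes called in a comparison of stimulated with control ES-astrocytes, none would be shown, so the 4 below were chosen after their values were seen, as genes that differed between the cell types in all treatments together. Capitals mark matches, all to GAAANNGAA except the middle match of Ifitm3, which is to TTCNNNGAA and overlaps the last one. Ifitm3 is shown at chr7:141010695-141010994 on the minus strand, Ifitm2 at chr7:140955912-140956211 on the minus strand, B2m at chr2:122147437-122147736 on the plus strand, and Ifngr2 at chr16:91546809-91547108 on the plus strand. Ifngr2 has no match in its window, and a match or its absence is only a description of the letters.
Ifitm3: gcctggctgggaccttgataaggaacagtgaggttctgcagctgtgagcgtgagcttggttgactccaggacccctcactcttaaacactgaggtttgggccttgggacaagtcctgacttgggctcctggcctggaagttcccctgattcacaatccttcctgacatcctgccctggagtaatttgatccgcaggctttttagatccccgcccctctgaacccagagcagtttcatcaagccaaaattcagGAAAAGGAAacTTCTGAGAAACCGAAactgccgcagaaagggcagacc
Ifitm2: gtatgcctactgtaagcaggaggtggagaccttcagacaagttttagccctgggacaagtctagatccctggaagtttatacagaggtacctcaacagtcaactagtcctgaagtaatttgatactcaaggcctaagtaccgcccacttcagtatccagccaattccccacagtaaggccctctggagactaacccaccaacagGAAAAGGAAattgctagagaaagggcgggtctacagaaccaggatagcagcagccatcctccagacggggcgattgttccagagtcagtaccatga
B2m: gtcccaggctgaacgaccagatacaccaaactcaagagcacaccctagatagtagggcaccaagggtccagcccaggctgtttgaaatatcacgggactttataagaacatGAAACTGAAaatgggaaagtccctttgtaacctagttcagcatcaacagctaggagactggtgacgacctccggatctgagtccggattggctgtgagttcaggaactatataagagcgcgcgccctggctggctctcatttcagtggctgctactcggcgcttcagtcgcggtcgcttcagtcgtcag
Ifngr2: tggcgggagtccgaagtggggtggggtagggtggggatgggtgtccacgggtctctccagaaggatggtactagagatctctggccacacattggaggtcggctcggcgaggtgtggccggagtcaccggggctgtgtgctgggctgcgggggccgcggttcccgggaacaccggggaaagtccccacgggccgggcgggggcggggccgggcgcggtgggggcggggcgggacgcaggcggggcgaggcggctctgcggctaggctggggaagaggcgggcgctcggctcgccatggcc

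The stimuli were compared with control within each cell type, 4 libraries against 4, to ask whether the interferon and MHC class I genes respond when ES-astrocytes are given inflammatory mediators and when ES-motor neurons meet them. The 4 comparisons within a cell type share their control libraries, so their values are set side by side and are not independent. No gene of the list was called in any of the 8, by edgeR or by DESeq2. DESeq2 gave some genes of the list no adjusted p, and these could not be called. In ES-astrocytes they were 9 of 21 with IL-1α and TNF-α, 13 of 21 with C1Q and C5 and 8 of 20 with IL-1β and IL-6. With TGF-β2 they were 11 of 23 in ES-astrocytes and 9 of 19 in ES-motor neurons.

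In ES-astrocytes given IL-1α and TNF-α, cytokines that act through NF-kB, the gene of smallest p was Ifitm3. It was 128, 160, 221 and 341 CPM in A to D, against 183, 94.8, 143 and 63.2 CPM in control. The highest stimulated value is D and the groups overlap, since control A and C lie among the lower stimulated libraries. The log2 fold change was 0.86 (SE 0.44). Ifnar1 followed, at 34.1, 28.5, 11.5 and 20.1 CPM against 8.79, 12.7, 15 and 12 CPM in control, where stimulated C lies within the control range and the other 3 above it (log2 fold change 1.00, SE 0.80). Of 13 tested genes of the list, 0 were called, as were 0 of 10444 genes (0%). At an unadjusted p under 0.05 edgeR gave 0 of the 13 and 93 genes (0.89%), and DESeq2 called none of the list and 25 of 20053 genes (0.125%). Log2 fold changes of the 13 were above 0 in 5 and below 0 in 8, from -1.47 (Irf3) to 1.00 (Ifnar1).

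With C1Q and C5, proteins of the complement cascade, Ifitm3 again had the smallest p, at 461, 147, 298 and 67.9 CPM in A to D. The 2 highest values, A and C, lie above all control libraries and D lies near the lowest of them (log2 fold change 1.03, SE 0.57). B2m was 164, 105, 202 and 17.2 CPM, above all control values in A and C and below all of them in D (log2 fold change 0.50, SE 0.65). Of 12 genes tested, 0 were called beside 0 of 10865 (0%). Unadjusted p-values under 0.05 from edgeR numbered 0 in the list and 106 over all genes (0.976%), and DESeq2 called 0 of the list and 40 of 20269 genes (0.197%). In 7 of the 12 the log2 fold change was above 0 and in 5 below, from -0.98 (Irf3) to 1.03 (Ifitm3).

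With IL-1β and IL-6, cytokines raised after brain injury, Ifitm3 was 136, 204, 132 and 275 CPM in A to D. B and D lie above the control range and A and C within it (log2 fold change 0.64, SE 0.43). Ifngr1 was 0.909, 2.83, 1.33 and 25.0 CPM against 69.8, 0.634, 28.9 and 24.0 CPM in control (log2 fold change -2.03, SE 1.49). Stimulated D reaches the control libraries and control B lies below all stimulated ones. Of 11 genes tested, 0 were called beside 0 of 10240 (0%). The count with an unadjusted p under 0.05 by edgeR was 0 in the list and 119 genes in all (1.16%), and by DESeq2 0 of the list and 56 of 19235 genes were called (0.291%). The 11 log2 fold changes had 7 above 0 and 4 below, from -2.03 (Ifngr1) to 0.81 (Tapbp).

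With TGF-β2, a growth factor that curbs inflammation, H2-K1 had the smallest p. It was counted in all 4 stimulated libraries, at 5.74, 5.45, 32.5 and 14.3 CPM, and in control in A alone, at 6.64 CPM. Stimulated C and D lie above every control library, and A and B lie below control A (log2 fold change 3.15, SE 2.02). No library of another stimulus had more than 5.93 CPM of H2-K1 among ES-astrocytes. Irf3 was 7.58, 3.60, 3.25 and 4.45 CPM against 48.3, 5.70, 0 and 7.03 CPM (log2 fold change -1.62, SE 1.52), a difference that rests on control A, which stands apart, and without it the log2 fold change was 0.19. Of 14 genes tested, 0 were called beside 0 of 10794 (0%). By edgeR 0 of the list and 136 genes (1.26%) had an unadjusted p under 0.05, and DESeq2 called 0 of the list and 58 of 20501 genes (0.283%). Of the 14, 5 log2 fold changes were above 0 and 9 below, from -1.62 (Irf3) to 3.15 (H2-K1).

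Leaving out control A, which stands apart, moved the number of all genes with an unadjusted p under 0.05 by edgeR to 434 with IL-1α and TNF-α, 524 with C1Q and C5 and 634 with TGF-β2. Leaving out any other library gave 94 to 220, 116 to 217 and 146 to 253. With IL-1β and IL-6 it was 265 without control A and 195 to 422 without another, the highest without stimulated B. Genes of the list among them numbered 0 or 1 in each of these fits, and none was called.

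The other genes of antigen presentation gave no called difference either. H2-D1 was 31.2, 26.5, 7.67 and 0 CPM in control ES-astrocytes A to D, and its lowest and highest values over the stimulated libraries were 0.0973 and 38.2 CPM, so the groups overlap throughout. Its log2 fold changes were 0.45 with IL-1α and TNF-α, -0.03 with C1Q and C5, 0.16 with IL-1β and IL-6 and -0.31 with TGF-β2. B2m had log2 fold changes of 0.19, 0.50, 0.56 and -0.07 in the same order. Irf1 fell below the filter: it was 1.29, 0.634, 0 and 0 CPM in control, 0, 1.99, 0 and 0 with IL-1α and TNF-α, 10.8, 1.80, 0 and 1.55 with C1Q and C5, 6.82, 6.06, 0.312 and 0 with IL-1β and IL-6, and 4.92, 13.2, 0 and 0 CPM with TGF-β2. Each group holds a library at or near 0. An exact two-sided permutation test gave its smallest p with C1Q and C5, at 0.2 (adjusted p = 0.8). Over both cell types 21 such tests of named genes below the filter were run, 0.514 was the smallest adjusted p (Ifnar1 in ES-motor neurons, C1Q and C5), and 15 others were at 0 in both groups. With 4 libraries against 4, the smallest p such a test allows is 0.0286.

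The receptor chains of ES-astrocytes spread widely between libraries of a group. Ifngr2 was 19.7, 24.2, 2.76 and 18.6 CPM with IL-1α and TNF-α, 27.7, 28.7, 27.9 and 13.9 with C1Q and C5, 34.5, 4.85, 37.3 and 34.4 with IL-1β and IL-6, and 25.2, 6.62, 6.15 and 51.9 CPM with TGF-β2. Low single libraries recur in most groups, and the control range was 10.2 to 25.3 CPM. With IL-1β and IL-6, A, C and D lie above it and B below it. With C1Q and C5, A, B and C lie above it and D within it. With IL-1α and TNF-α, C lies below it and the others within it, and with TGF-β2, A lies within it, B and C below and D above. Ifnar2 was at 0 in 3 stimulated libraries, C1Q and C5 A and C and IL-1β and IL-6 A, and its control values were 24.1, 0.362, 23 and 25.2 CPM. Its log2 fold changes were -1.05, -0.88, -0.49 and -1.07 in the order above, each with a standard error larger than itself.

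ES-motor neurons on ES-astrocytes given IL-1α and TNF-α were the shallowest group, with 112775 to 445874 counts, and 2 genes of the list passed the filter. B2m was 0, 36.7, 13.4 and 52.0 CPM, which are 0, 17, 4 and 6 counts, against 26.3, 43.9, 26.9 and 69.7 CPM in control (log2 fold change -0.65, SE 0.71). Ifngr2 was 53.3, 17.3, 33.5 and 26.0 CPM against 24.5, 42.6, 19.2 and 44.4 CPM (log2 fold change 0.12, SE 0.61). Both genes overlap between the groups. Below the filter, exact permutation tests gave p = 0.543 for H2-D1, 0.343 for Ifnar1, 0.771 for Ifnar2 and 0.486 for Ifngr1. Of the 2, 0 were called beside 0 of 4479 genes (0%), 0 and 143 (3.19%) had an unadjusted p under 0.05 by edgeR, and DESeq2 called 0 and 1 of 18110 (0.00552%).

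In ES-motor neurons of the C1Q and C5 co-cultures, Ifngr2 was 67.6, 59.8, 61.5 and 105 CPM. All 4 lie above every control library, but A is a single count. The log2 fold change was 1.14 (SE 0.50), which did not pass the correction (edgeR adjusted p = 0.997), and without the shallow libraries it was 1.04. Tapbp was 0, 85.3, 62.5 and 42.4 CPM against 65.2, 21.4, 42.3 and 27.7 CPM in control, with B alone above the control range (log2 fold change 0.65, SE 0.54). Of 8 genes tested, 0 were called beside 0 of 7348 (0%). Unadjusted, edgeR gave 1 of the 8, Ifngr2, and 322 genes (4.38%) a p under 0.05, and DESeq2 called 0 of the list and 0 of 18606 genes (0%). The 8 had 5 log2 fold changes above 0 and 3 below, from -1.04 (Ifngr1) to 1.14 (Ifngr2).

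In the IL-1β and IL-6 co-cultures, B2m of ES-motor neurons was 16, 45.2, 12.8 and 33.5 CPM, with A and C below all control libraries, and B and D resting on 4 and 5 counts. The log2 fold change was -0.88 (SE 0.69), and -1.73 without the shallow libraries, which leaves A and C against 3 controls. Ifngr2 was 59.9, 45.2, 36.9 and 60.2 CPM, above the control range in A, B and D (log2 fold change 0.60, SE 0.56). Of 9 genes tested, 0 were called beside 0 of 8327 (0%), with 0 and 98 (1.18%) at an unadjusted p under 0.05 by edgeR and 0 and 1 of 20534 (0.00487%) called by DESeq2. Of the 9 log2 fold changes 4 were above 0 and 5 below, from -0.88 (B2m) to 0.60 (Ifngr2).

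In the TGF-β2 co-cultures, Tapbp of ES-motor neurons was 53.9, 65.3, 55.5 and 72.9 CPM. These lie together near the top of the control values, of which A at 65.2 CPM is the highest (log2 fold change 0.68, SE 0.49). Ifngr2 was 62.1, 53.2, 20.4 and 84.9 CPM, above control in A, B and D and within its range in C (log2 fold change 0.70, SE 0.54). H2-K1, at 0 in all control ES-motor neurons, was 2.40 CPM in B and 12 CPM in D. Of 9 genes tested, 0 were called beside 1 of 7947 (0.0126%), with 0 and 221 (2.78%) at an unadjusted p under 0.05 by edgeR and 0 and 17 of 19187 (0.0886%) called by DESeq2. Above 0 were 3 of the 9 log2 fold changes and below 0 were 6, from -0.99 (Irf9) to 1.48 (Ifnar1).

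Other central genes of ES-motor neurons gave few counts. H2-D1 was 8.15, 12.6, 11.5 and 0 CPM in control, and every stimulated group held at least 1 library at 0. Irf1 was counted in 3 libraries, at 4.24 CPM in C1Q and C5 D, 1.59 CPM in IL-1β and IL-6 A and 10.5 CPM in TGF-β2 B. Tap1 and Gbp2 had none. Ifnar1, whose control values were 0, 21.6, 0 and 0.955 CPM, was 17.8, 6.48, 13.4 and 8.67 CPM with IL-1α and TNF-α, values of at most 4 counts each. It was 0, 43.1, 8.20 and 36.0 CPM with C1Q and C5, 15.3, 0, 7.38 and 6.69 CPM with IL-1β and IL-6 and 0, 19.5, 41.5 and 10.3 CPM with TGF-β2. Control B lies among these values, and the other 3 control libraries at or near 0. In ES-motor neurons too, leaving out 1 library moved the number of all genes with an unadjusted p under 0.05 by edgeR. It ran from 74 to 279 with IL-1α and TNF-α and from 216 to 626 with C1Q and C5. With IL-1β and IL-6 it ran from 85 to 362, the highest without stimulated A, which stands apart, and with TGF-β2 from 188 to 387. No gene of the list was called in these fits.

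**Figure D3:**
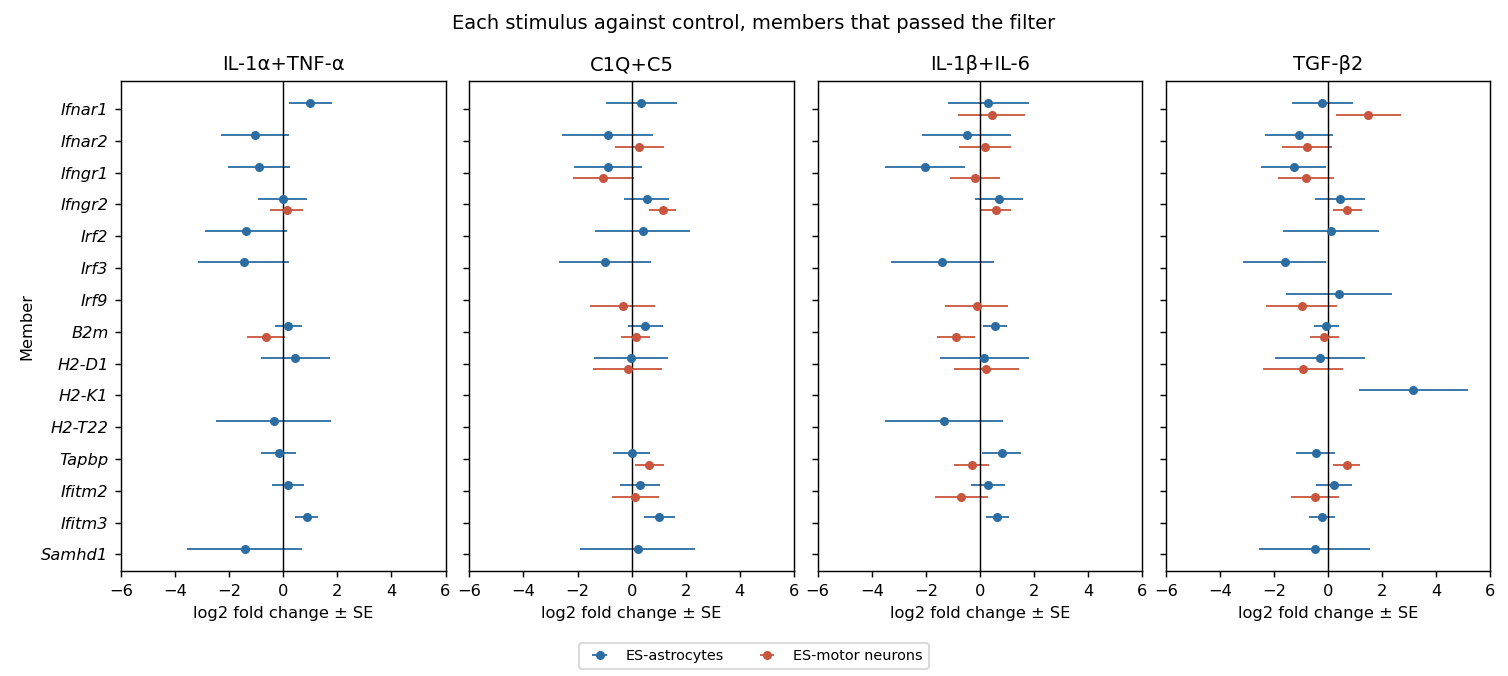
Log2 fold change against control (horizontal axis, with bars of 1 standard error) of each tested gene of the list for the 4 stimuli, in ES-astrocytes (blue) and ES-motor neurons (red). The bars are long, most cross 0, and none of these differences was called.

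Whether a stimulus acted differently in the cell types was tested by the interaction of stimulus and cell type. The value is the log2 fold change in ES-motor neurons minus that in ES-astrocytes. It can be positive through a rise in ES-motor neurons or a fall in ES-astrocytes. No gene of the list was called in the 4 interactions. Ifitm3 had the smallest p in 3 of them, with log2 values of 4.04 (SE 1.38) for IL-1α and TNF-α, 3.44 (SE 1.28) for IL-1β and IL-6 and 4.88 (SE 1.80) for TGF-β2. In ES-motor neurons these rest on 1 count of Ifitm3 in control and on 2, 32 and 9 counts in the stimulated groups, too few to measure a response. The 32 counts are all in IL-1β and IL-6 A, which stands apart, and without the 3 libraries that deviate together the value was -2.39. For TGF-β2 the 9 counts are all in C, and without replicate C the value was -1.63. With C1Q and C5 the smallest p was of Samhd1, an enzyme that depletes the nucleotides viruses need, at -8.00 (SE 4.04), where the 4 ES-motor neuron libraries had no count.

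For IL-1α and TNF-α, 0 of 13 genes were called beside 0 of 11161 (0%), with 1 and 297 (2.66%) at an unadjusted p under 0.05 by edgeR, and DESeq2 called 0 and 0 of 22215 (0%). For C1Q and C5, the counts were 0 of 14 and 1 of 11352 (0.00881%), 0 and 421 (3.71%) unadjusted, and 0 and 7 of 22643 (0.0309%) by DESeq2. For IL-1β and IL-6 they were 0 of 14 and 0 of 12104 (0%), 2 and 552 (4.56%) unadjusted, and 0 and 24 of 23219 (0.103%) by DESeq2. Irf2, a factor that competes with Irf1, was the other gene here besides Ifitm3, at 6.58 (SE 2.61). For TGF-β2 they were 0 of 15 and 0 of 11967 (0%), 1 and 442 (3.69%) unadjusted, and 0 and 18 of 23107 (0.0779%) by DESeq2. Without 1 replicate letter, the unadjusted counts of all genes ran from 281 to 631 for IL-1α and TNF-α and from 358 to 870 for C1Q and C5. For IL-1β and IL-6 they ran from 527 to 884 and for TGF-β2 from 333 to 621. Size factors by RLE in place of TMM shifted the median of all genes by 0.22 for IL-1α and TNF-α and 0.18 for IL-1β and IL-6 on the log2 scale, and called no gene of the list. In the DESeq2 fits of the interactions, genes of the list without an adjusted p could not be called. They were 5 of 23 for IL-1α and TNF-α, 7 of 22 for C1Q and C5, 14 of 27 for IL-1β and IL-6 and 12 of 24 for TGF-β2.

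Other genes of the pathway were read from lists written beside the 35. The 11 interferon genes searched, type I, II and III, had no count in any ES-astrocyte library, and Ifng alone had 2 counts, in a single ES-motor neuron library. Of the sensors of nucleic acid, 12 of 14 symbols were found, 3 were tested, and Eif2ak2, a kinase that halts translation on viral RNA, was lower in ES-motor neurons (log2 fold change -3.54, SE 1.22), where 11% of all genes tested were called lower. The ES-motor neuron counts of Eif2ak2 are not given here, so the size of its fold is not read as a measure of the difference. Of 61 other interferon stimulated genes, 11 were tested and 7 were called lower in ES-motor neurons. Of the 5 with the smallest adjusted p, Ly6e had a log2 fold change of -2.18 (SE 0.46). Pml, Gbp8, Tor3a and Parp12 were also called, but the last 3 had no count in ES-motor neurons and Pml had 1. Such genes passed the filter through ES-astrocytes alone, so neither their folds nor the number called on this list is a measure of the difference. Mx1, Mx2, Oas2, Oas3 and Cxcl10, named here after their values were seen, had no count in either cell type.

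Other genes of antigen presentation differed widely in level. Of 29, 4 had no count in any ES-astrocyte library and 11 none in any ES-motor neuron library. Their sum was 2028 to 5438 CPM in ES-astrocytes and 1689 to 5590 CPM in ES-motor neurons, with the chaperone Canx and the proteasome subunit Psmb6 the most abundant. Of the 29, 15 were tested, and 2 were lower in ES-motor neurons, a share near the 11% of all genes: Erap1 (-5.22, SE 1.04), which trims peptides to the length class I molecules hold, and H2-Ke6 (-2.36, SE 0.63), a gene of the MHC region with an enzymatic role. The ES-motor neuron counts of these 2 genes are not given here, so the size of their folds is not read as a measure of the difference. Psmb9, the immunoproteasome subunit that interferon γ induces, named after its values were seen, had no count in either cell type. Of 7 MHC class II genes 1 was tested and not called. No gene of any of these lists was called in a comparison of a stimulus with control.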

How the data were processed

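Counts per gene of 40 libraries were deposited by the authors, who state in their methods that reads were aligned with STAR. The genome build, annotation release, counting tool and strand setting were not given in the sources used here. Gene names and positions were matched to GENCODE M21 (GRCm38), and 346 genes without a name there hold 0.133% of the counts. Groups of 4 libraries were fitted with edgeR 4.0.16 (quasi-likelihood, TMM) in R 4.3.3 after a filter on low counts, and again with DESeq2 1.42.0. Calls need an adjusted p up to 0.05 with a log2 fold change beyond 1 in either direction. The scripts were tested on simulated data.

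Alternatives were RLE size factors, DESeq2, no filter, the replicate letter as a block, all libraries in a single fit, each library left out, and the shallow libraries left out. Each plate alone, and leaving out the 3 libraries that deviate together or 5 with the next most alike, were chosen after seeing the data. The members and lists were chosen with earlier results of these data known. Named genes are those called between the cell types, the 2 of smallest p in comparisons without a call, Irf1, B2m, H2-D1, H2-K1, Tap1, Gbp2 and the 4 receptor chains, and at most 5 called genes per other list. Others were named after their values were seen. Of the other lists, 4 symbols (Sting1, Mb21d1, Herc5 and Ctgf) were not found. A floor of 3 counts was 0.230 to 2.04 CPM in ES-astrocyte and 0.153 to 203 CPM in ES-motor neuron libraries. It covers counting error only, because the reads carry no molecular identifiers. The list of receptor signalling genes is not reported here.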

Additional observations from a re-analysis of the deposited data

Results flagged for a closer look

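Within each group of 4 libraries, a library was picked out when its gap to the nearest other, divided by the range of the group, passed the 95% critical value of Dixon's test. This was done for 151 groups of values and picked out 37, of which 33 are of genes and 4 of library measures, where chance picks out about 1 in 20. In 20 of them the other 3 libraries had no count, so the value is 1 by construction.

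Those with a value of 1 are, in ES-astrocytes, Gbp2 in C1Q and C5 B, H2-K1 in control A and IL-1β and IL-6 C, Ifit2 in control B, IL-1α and TNF-α B, C1Q and C5 B and TGF-β2 A, Irf1 in IL-1α and TNF-α B, and Tap1 in C1Q and C5 B, IL-1β and IL-6 D and TGF-β2 D. In ES-motor neurons they are H2-K1, H2-T22, Ifitm3 and Irf1 in IL-1β and IL-6 A, H2-T22 and Irf1 in TGF-β2 B, Ifitm3 in control B and TGF-β2 C, and Irf1 in C1Q and C5 D.

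In ES-astrocytes a single high library gave values of 0.923 (H2-K1, IL-1α and TNF-α B), 0.886 (H2-T22, C1Q and C5 B), 0.92 (Ifngr1, IL-1β and IL-6 D), 0.834 (Irf1, C1Q and C5 A), 0.879 (Tapbp, IL-1α and TNF-α A) and 0.936 (Tapbp, IL-1β and IL-6 C). A single low library gave 0.898 (Ifitm2, C1Q and C5 D), 0.912 (Ifnar2, control B), 0.933 (Ifngr2, C1Q and C5 D) and 0.911 (Ifngr2, IL-1β and IL-6 B). In ES-motor neurons a high library gave 0.956 (Ifnar1, control B) and 0.892 (Ifnar2, C1Q and C5 A, a single count), and a low one 0.946 (Ifngr1, IL-1β and IL-6 B).

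Total counts were far above the rest of the group in ES-astrocyte IL-1α and TNF-α A (0.96) and in ES-motor neuron control B (0.89) and TGF-β2 B (0.885). The mitochondrial percentage was far below the rest in ES-astrocyte control A (0.874).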

How the results depend on the processing

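The count of called members stayed within 1.5 times its first value in 159 of 160 alternative fits, and in all comparisons of a stimulus with control and all interactions it stayed at 0. Between the cell types it was 6, and 2 within plate index 1, chosen after seeing the data, where 16 libraries remain and 13 members were tested. It was 7 with RLE size factors, 8 without a filter, 4 with DESeq2, 4 within plate index 2, 5 without the shallow libraries and 6 without the 3 libraries that deviate together or the 5 most alike in deviation. RLE size factors added H2-K1. The DESeq2 fit had a median log2 fold change of 1.33 over its 26773 genes, against -0.21 over the 13227 of the main fit. Its folds between the cell types are therefore not set beside those of edgeR as weaker or stronger. Of 899 alternative values for 70 results of single members, 817 kept their direction and their side of the threshold, 12 lost a call, 1 gained a call and 69 changed sign, none of them in a called member. Ifit2 also fell below the filter without replicate B and within either plate, which gives no value. The cause of these changes of sign was not tested.

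The replicate letters were not taken to pair the samples: correlations of libraries of the same letter ran from -0.233 to 0.531, and no comparison had all 4 above 0.1. Some comparisons had all 4 above 0, as ES-motor neurons with TGF-β2 against control did (0.049 to 0.183). Others did not, as ES-astrocytes with C1Q and C5 against control (-0.229 to 0.069). Libraries matched their own letter best in 7 of 8 cases in the first of these comparisons and in 0 of 8 in the second. For control ES-motor neurons with ES-astrocytes given IL-1α and TNF-α it was 8 of 8, so the samples may be paired in part. With the letter as a block, values on the log2 scale that changed sign were, in ES-astrocytes, H2-D1 0.82 and Ifnar1 -0.34 with C1Q and C5, H2-D1 -0.057 and Ifnar1 -0.39 with IL-1β and IL-6, and B2m 0.019 and Ifngr2 -0.019 with TGF-β2. In ES-motor neurons they were H2-D1 -0.076 and Ifngr1 0.046 with IL-1β and IL-6, and between the cell types Ifngr1 0.027. Blocking by treatment and letter together ended the cell type calls of H2-T22 (-3.44, adjusted p = 0.113) and Ifit2 (-4.51, adjusted p = 0.0569), and the block changed no other call.

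Ifngr2 in ES-motor neurons with IL-1α and TNF-α was -0.052 with all libraries in a single fit and -0.073 without a filter. Without the shallow libraries, ES-motor neuron values were 0.082 for H2-D1 with C1Q and C5, and -0.45 for Ifnar2 and 0.11 for Ifngr1 with IL-1β and IL-6. Between the cell types Ifnar1 was then 0.44 and Ifngr1 0.023, and within plate index 2 they were 0.34 and 0.22. DESeq2 gave 1.01 for H2-T22 in the C1Q and C5 interaction. Without the 3 libraries that deviate together, Ifngr1 was 0.11 between the cell types (0.0064 without the 5), Ifitm3 -2.39 in the IL-1β and IL-6 interaction and H2-K1 -1.84 in the TGF-β2 interaction. The cause of these was not tested either.

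Lowest and highest values on leaving out 1 library or letter, where a sign changed, were as follows. In ES-astrocytes with IL-1α and TNF-α: B2m -0.057 to 0.46, Ifngr2 -0.28 to 0.33. With C1Q and C5: H2-D1 -0.44 to 0.50, Ifnar1 -0.012 to 0.77. With IL-1β and IL-6: H2-D1 -0.50 to 0.69, Ifnar1 -0.30 to 0.73. With TGF-β2: Irf3 -2.02 to 0.19, B2m -0.31 to 0.22, H2-D1 -1.51 to 0.21, Ifnar1 -0.92 to 0.16, Ifngr2 -0.37 to 0.75. In ES-motor neurons with IL-1α and TNF-α: Ifngr2 -0.29 to 0.41. With C1Q and C5: B2m -0.075 to 0.49, H2-D1 -0.76 to 0.35, Ifnar2 -0.0042 to 0.78. With IL-1β and IL-6: H2-D1 -0.84 to 0.62, Ifnar2 -0.55 to 0.69, Ifngr1 -0.60 to 0.069. With TGF-β2: B2m -0.37 to 0.22. Between the cell types: Ifngr1 -0.40 to 0.57. In the interactions: Tapbp -1.87 to 0.13 (IL-1α and TNF-α), Ifitm3 -2.65 to 4.98 (IL-1β and IL-6), Ifitm3 -1.63 to 6.83 and H2-K1 -1.78 to 6.08 (TGF-β2). H2-T22 between the cell types ran from -4.09, where it was called, to -2.73, and its call was lost in 3 of 4 such fits.

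Leaving out the shallow libraries was not run for ES-motor neurons with IL-1α and TNF-α and its interaction, where no stimulated library would remain. In the ES-motor neuron comparisons 2 to 9 of the 35 members were tested. With 4 libraries of about 200 cells per group and counts that come and go between libraries, a lack of calls sets no bound on a response, and the plate cannot be told apart from the 3 stimuli of plate index 2.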

Other observations

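Genes that the stimuli are known to act on were read as a check beside the interferon and MHC class I genes, and none was called in a comparison of a stimulus with control. Of 23 genes downstream of NF-kB, 7, 4, 4 and 5 were tested in ES-astrocytes with IL-1α and TNF-α, C1Q and C5, IL-1β and IL-6, and TGF-β2. In ES-motor neurons 1 or 2 were tested. Between the cell types 14 were tested and 6 were called lower in ES-motor neurons. The 5 with the smallest adjusted p were the acute phase gene Saa3, the chemokines Ccl7 and Ccl20, the growth factor Csf1 and the complement gene C3. Each of these 5 was counted in 1 to 3 ES-motor neuron libraries and passed the filter through ES-astrocytes. Neither their folds nor the number called on this list is therefore a measure of the difference. Of 7 tested genes downstream of IL-6 and STAT3, the kinase gene Pim1 was lower in ES-motor neurons (-1.73), a share near the 11% of all genes, and of 7 downstream of TGF-β, Id3 was (-1.40), and Col1a1 was called with counts in 2 ES-motor neuron libraries.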
